A study of Mus musculus with 12 samples.

Results

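The genes described here belong to the unfolded protein response of the endoplasmic reticulum (ER), the integrated stress response and the heat shock response. They were taken by symbol from a written list of 38 mouse genes, and all 38 were found among the 55471 genes of the count table. The libraries came from wild-type (WT) primary mouse hippocampal neuron cultures that were given a gapmer, an antisense oligonucleotide that directs cleavage of its target RNA, at DIV 7 (days in vitro). RNA was isolated at DIV 10, which was 3 days later. By the study's methods, the cultures were made from CD1 embryos of both sexes, and knockdown rested on a single *Neuid* gapmer sequence in lipid nanoparticles. The control group (6 libraries) received a control gapmer, and the *Neuid* KD group (6 libraries) received a gapmer against *Neuid* (Gm10419), a long noncoding RNA. Both groups therefore carried an oligonucleotide and its lipid carrier, and no untreated culture was analysed here, so a response shared by both gapmers would not appear as a difference between them. The labels do not say whether the libraries of a group came from separate cultures, so the p-values measure the spread between these libraries, which may be technical.

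Cells slow general translation under stress by phosphorylating the initiation factor eIF2alpha, and the kinases that do this answer to unfolded ER protein, amino acid shortage, double-stranded RNA or haem shortage. Phosphorylated eIF2alpha favours translation of the transcription factor ATF4, which turns on genes for amino acid supply and, in long-lasting stress, CHOP (Ddit3) and Trib3. In parallel, the ER sensors IRE1 (Ern1) and ATF6 raise the supply of chaperones, folding enzymes and the machinery for degrading misfolded ER protein, IRE1 by splicing the RNA of Xbp1. Heat shock factor 1 (Hsf1) serves the cytosol in a comparable way through inducible chaperones such as Hspa1a. ATF4, XBP1 and the sensors are controlled largely by steps such as translation, splicing or phosphorylation, which read counts per gene do not measure.

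The targeted RNA, *Neuid*, was at 26.0 to 31.0 CPM (the reads of a gene relative to library size, on a fixed scale) in control and at 6.32 to 9.55 CPM in *Neuid* KD, which left 28.4% of the control mean. The depth was 18002585 to 30914714 counted reads in control and 11152556 to 30573480 in *Neuid* KD. Background, measured as the summed level of 1778 chemosensory receptor genes, ranged from 26.0 to 653 CPM in control and from 26.9 to 604 CPM in *Neuid* KD. It reached 100 CPM in 7 libraries, 4 control and 3 *Neuid* KD. Each member that passed the test is also given below within these 7 high-background libraries and within the 5 low-background libraries. Both sets hold fewer libraries per group than the main test. Whether calls lost there came from that or from the background was not tested. The summed level of 10 neuron markers was between 5770 and 6869 CPM in control and between 5853 and 6975 CPM in *Neuid* KD, so the labelled cell type was present in every library. The 10 astrocyte markers summed to between 1837 and 2341 CPM in control and to between 4326 and 4835 CPM in *Neuid* KD, and all 10 rose. The summed levels of 7 microglial markers (5.73 to 11.3 CPM over all libraries), 4 endothelial markers (0.749 to 12.4 CPM) and 6 fibroblast and mural cell markers (28.8 to 58.6 CPM) were low, and C1qa and Cldn5 were the only microglial and endothelial markers under 0.5 CPM in every library.

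Few of the stress genes differed between the groups, and the changes were small except for that of Trib3. Of the 38, 4 were higher in *Neuid* KD (Calr, Dnajb11, Dnajc3 and Pdia4, all of them ER chaperones or folding enzymes) and 3 were lower (Trib3, Asns and Xbp1) at an adjusted p under 0.05 by edgeR's quasi-likelihood test. These are 10.5% and 7.89% of the members, beside 6.31% of all 19578 tested genes called higher and 2.42% called lower. With an absolute log2 fold change above 0.5 as well, Trib3 was the only member called (2.63% of the members), beside 0.792% of all tested genes called lower and 2.44% called higher. No member was called higher past that fold, by edgeR, at an unadjusted p under 0.05 or by DESeq2. The groups did not overlap for Calr and Dnajc3, which were higher (5.26% of the members, beside 4.13% of all tested genes), and for Trib3, which was lower (2.63%, beside 1.57%). With no filter on low counts, Trib3 alone among the members was called (edgeR). Of all genes called at an adjusted p under 0.05, 72.3% were higher in *Neuid* KD, against 45.5% with upper-quartile normalization and 59.8% with DESeq2.

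**Figure D1:**
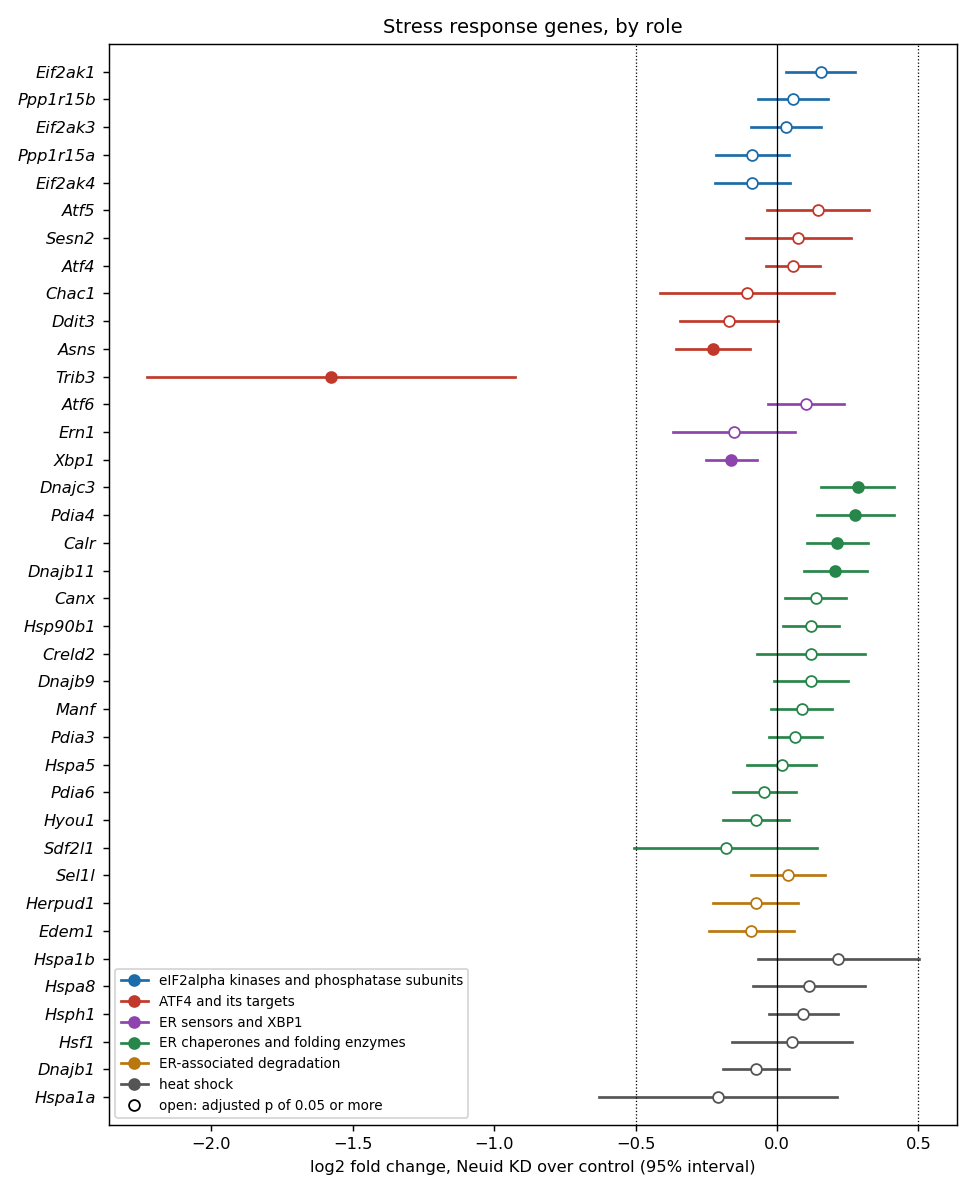
Log2 fold change of each of the 38 members, *Neuid* KD over control, with its 95% interval, coloured by role. Filled points had an adjusted p under 0.05, open points did not, and dotted lines mark -0.5 and 0.5. Trib3, at -1.58, lies far to the left of the other members, which lie between -0.23 and 0.28.

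Over the 38 members the median log2 fold change was 0.05, and 23 members had a positive and 15 a negative value. It was -0.03 over all tested genes and 0.003 over those with a mean of at least 1 CPM. With upper-quartile normalization, under which the median of all tested genes was -0.09, the median of the members was -0.01, with 17 positive and 21 negative values. Within the low-background libraries the member median was -0.007 (18 positive, 20 negative), beside 0.013 over all tested genes. It was 0.05 within the high-background libraries (25 positive, 13 negative). Without control library 2 it was -0.002 (18 positive, 20 negative), and it stayed positive when any other single library was left out. For the 31 members that did not pass the test, the 95% intervals reached from -0.63 at the lowest to 0.50 at the highest. The intervals of 28 of the 31 lay within 0.5 of zero on the log2 scale, and those of 22 lay within 0.3. Among them, 3 genes (Eif2ak1, Hsp90b1 and Canx) had an unadjusted p under 0.05.

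The promoters of 7 members are printed here because they hold the short motifs by which ATF4 and the ER sensors are known to act, in genes that changed and in well-known targets that did not pass the test. The sequences are those of RefSeq on GRCm38.p6, on the strand of the gene and from 5′ to 3′, from 250 bases before to 30 bases after the annotated start, with the motif in capitals. In Trib3 (chr2:152344031-152344310, minus strand), Asns (chr6:7693180-7693459, minus strand) and Chac1 (chr2:119350992-119351271, plus strand) the capitals mark the composite C/EBP-ATF element, TGATGNAA on either strand. In Calr (chr8:84846902-84847181, minus strand), Dnajc3 (chr14:118937682-118937961, plus strand) and Hspa5 (chr2:34771840-34772119, plus strand) they mark the ER stress element, which is CCAAT and CCACG separated by 9 bases. In Dnajb11 (chr16:22857595-22857874, plus strand) they mark the related element ERSE-II, ATTGG and CCACG separated by 1 base.
Trib3: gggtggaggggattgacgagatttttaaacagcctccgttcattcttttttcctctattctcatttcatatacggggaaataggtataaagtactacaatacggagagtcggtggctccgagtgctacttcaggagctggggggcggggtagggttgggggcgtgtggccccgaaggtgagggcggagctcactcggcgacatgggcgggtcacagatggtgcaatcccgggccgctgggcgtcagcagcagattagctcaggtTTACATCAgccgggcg
Asns: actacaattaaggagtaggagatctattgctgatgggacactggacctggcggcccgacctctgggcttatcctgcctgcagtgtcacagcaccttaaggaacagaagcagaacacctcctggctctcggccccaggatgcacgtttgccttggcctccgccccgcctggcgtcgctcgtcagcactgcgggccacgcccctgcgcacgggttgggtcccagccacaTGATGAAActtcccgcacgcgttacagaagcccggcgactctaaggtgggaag
Chac1: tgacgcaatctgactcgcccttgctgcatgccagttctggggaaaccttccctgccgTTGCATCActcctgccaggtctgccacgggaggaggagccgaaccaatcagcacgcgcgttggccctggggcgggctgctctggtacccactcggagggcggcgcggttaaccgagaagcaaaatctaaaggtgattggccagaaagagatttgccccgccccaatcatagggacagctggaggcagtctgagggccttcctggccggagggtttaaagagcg
Calr: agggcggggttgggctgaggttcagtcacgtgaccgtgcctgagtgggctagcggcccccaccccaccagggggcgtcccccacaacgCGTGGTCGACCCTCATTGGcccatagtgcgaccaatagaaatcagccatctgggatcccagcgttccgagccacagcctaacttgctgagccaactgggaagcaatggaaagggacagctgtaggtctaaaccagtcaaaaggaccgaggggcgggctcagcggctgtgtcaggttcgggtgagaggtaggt
Dnajc3: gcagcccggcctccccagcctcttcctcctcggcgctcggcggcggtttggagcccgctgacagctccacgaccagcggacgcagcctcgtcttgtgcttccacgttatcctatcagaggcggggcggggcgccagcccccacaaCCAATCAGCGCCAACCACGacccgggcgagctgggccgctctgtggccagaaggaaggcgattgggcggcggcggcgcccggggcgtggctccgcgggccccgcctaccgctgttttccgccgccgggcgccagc
Hspa5: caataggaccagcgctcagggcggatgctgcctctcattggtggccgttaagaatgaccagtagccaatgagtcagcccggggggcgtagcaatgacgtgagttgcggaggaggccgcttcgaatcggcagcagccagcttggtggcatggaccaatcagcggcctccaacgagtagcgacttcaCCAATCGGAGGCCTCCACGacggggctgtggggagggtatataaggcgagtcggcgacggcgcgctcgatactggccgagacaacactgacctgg
Dnajb11: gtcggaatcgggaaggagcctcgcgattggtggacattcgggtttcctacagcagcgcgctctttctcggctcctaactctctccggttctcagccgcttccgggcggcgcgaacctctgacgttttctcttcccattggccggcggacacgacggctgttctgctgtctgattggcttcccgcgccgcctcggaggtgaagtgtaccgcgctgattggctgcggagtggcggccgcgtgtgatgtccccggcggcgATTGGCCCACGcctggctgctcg

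RefSeq promoters were found for 32 of the 38 members, with 36 promoters in all, and not for Atf6, Hsf1, Hspa8, Hyou1, Manf and Ppp1r15b. Each motif was searched on both strands of the window from 250 bases before to 50 after the start, and the shares are of all 32851 promoters in the same table. The ER stress element occurred in 0.119% of promoters and in Calr, Canx, Creld2, Dnajc3, Hsp90b1, Hspa5 and Pdia6. ERSE-II occurred in 0.0365% of promoters and in Dnajb11 and Herpud1, and the composite element in 3.97% of promoters and in Asns, Chac1, Herpud1 and Trib3. The XBP1 motif TGACGTGG occurred in 0.676% of promoters and in no member. The heat shock element, searched as GAA, TTC and GAA separated by 2 bases, occurred in 0.603% of promoters and in Hsph1. The 2 forms of the ER stress element share the stretch CCACG, which TGACGTGG also holds on its other strand, and none of the matches to different motifs overlapped in these members. Among the ER chaperones, an ER stress element or ERSE-II was present in 3 of the 4 genes that rose (Pdia4 had none) and in 5 of the 8 that did not pass the test and had a promoter in the table. A match describes the sequence, and binding was not measured here.

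Of ATF4 and its targets, 2 of 7 fell in *Neuid* KD, beside 2.42% of all tested genes called lower, and none was called higher by edgeR, at an unadjusted p under 0.05 or by DESeq2, beside 6.31%. Trib3 encodes a pseudokinase that binds AKT and ATF4 and lies at chr2:152337422-152344032 on the minus strand of GRCm38. It was at 2.22, 1.67, 1.70, 2.09, 1.62 and 1.90 CPM in control libraries 1 to 6. In *Neuid* KD libraries 1 to 6 it was at 0.337, 0.776, 0.936, 0.455, 0.615 and 0.576 CPM. Every *Neuid* KD library was thus below every control library, and the mean went from 1.87 ± 0.246 to 0.616 ± 0.216 CPM (SD, n = 6 per group), which left 33.0% of the control level. On the log2 scale the change was -1.58, with a standard error of 0.308 and a 95% interval from -2.23 to -0.93 (adjusted p = 0.00239, edgeR's quasi-likelihood test). Trib3 was among the least abundant members, with 35 to 51 reads per control library and 4 to 20 reads per *Neuid* KD library. The log2 fold change was -1.88 within the high-background libraries (adjusted p = 0.00779, edgeR) and -1.25 within the low-background libraries (adjusted p = 0.0499, edgeR).

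Asns, the asparagine synthetase that is a standard readout of ATF4, changed much less than Trib3. It lies at chr6:7675169-7693254 on the minus strand and had a lowest, median and highest level of 85.1, 92.6 and 96.1 CPM in control. In *Neuid* KD the same values were 64.6, 79.4 and 85.5 CPM, so the groups met only at their edges, and all 6 *Neuid* KD libraries were below the control median. The mean went from 91.3 ± 4.72 to 78.0 ± 7.17 CPM (SD, n = 6 per group). On the log2 scale this was a change of -0.23 with a standard error of 0.0619 (adjusted p = 0.0289, edgeR). The call was lost, with an adjusted p between 0.0548 and 0.0604 by edgeR, when control library 3, 5 or 6 or *Neuid* KD library 5 was left out. The log2 fold change was -0.28 within the high-background and -0.22 within the low-background libraries (adjusted p = 0.0451 and 0.00152, edgeR).

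**Figure D2:**
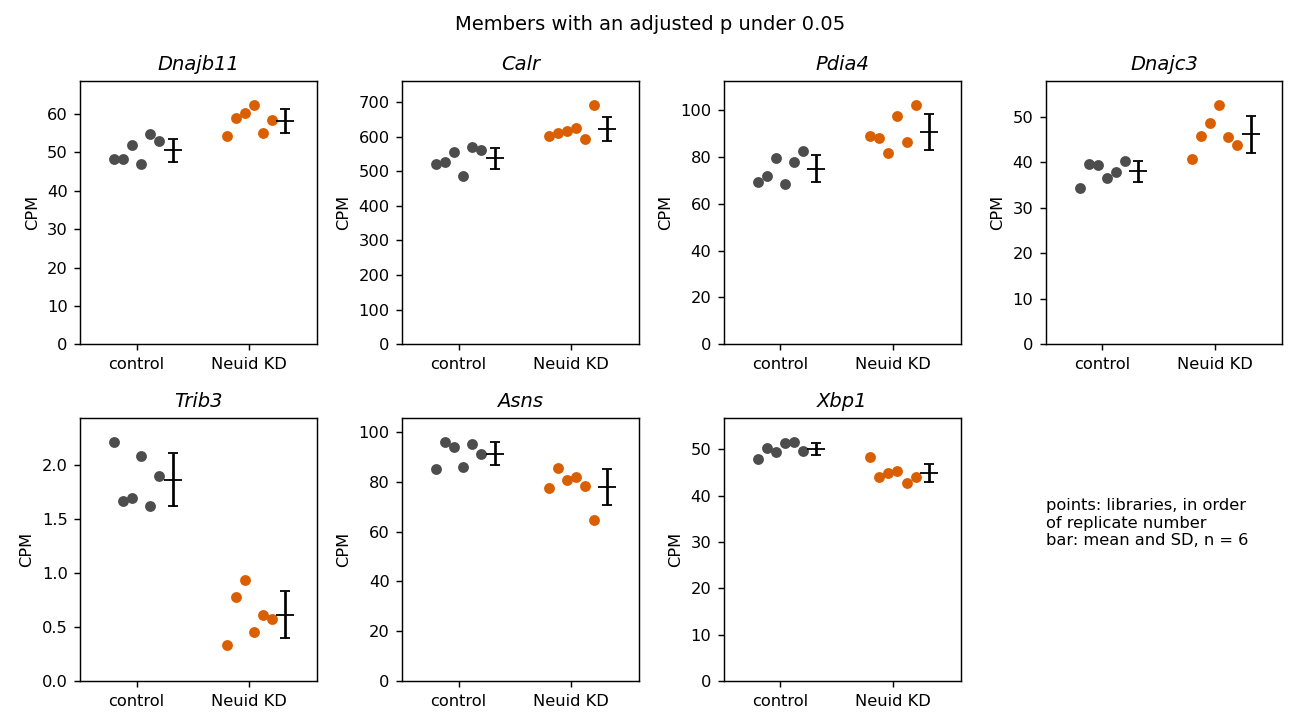
Level in CPM of each member with an adjusted p under 0.05, for 6 control and 6 *Neuid* KD libraries. Each point is a library, in order of replicate number, and the bar is the mean with its SD. The panels start at 0, and the groups are far apart for Trib3 and close together for the other 6 genes.

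The other genes of this arm did not pass the test. Atf4 itself was at 133, 138 and 145 CPM in control (lowest, median and highest) and at 131, 144 and 152 CPM in *Neuid* KD, with overlapping groups and a log2 fold change of 0.06 (95% interval -0.04 to 0.15). Ddit3, which encodes the pro-apoptotic factor CHOP, was at 16.9, 18.5 and 24.1 CPM in control and at 15.2, 16.9 and 19.0 CPM in *Neuid* KD, again with overlap. Its log2 fold change was -0.17 (95% interval -0.34 to 0.00, adjusted p = 0.282, edgeR), and without control library 1, the highest of them, it was -0.09. Exons of Ddit3 overlap those of Mars and Gm4189 on the opposite strand, and the strand setting of the counting is not given in the sources used here. They also overlap a second entry of the same symbol on the same strand, which held 0 reads in every library. Chac1, a glutathione-degrading enzyme and a sensitive ATF4 target, was at 3.97, 4.84 and 5.80 CPM in control and at 3.23, 4.65 and 5.56 CPM in *Neuid* KD. Its log2 fold change was -0.11 at 66 to 174 reads per library. The 95% interval was wide, from -0.42 to 0.20, and held changes in both directions. Atf5, a factor related to ATF4, had a log2 fold change of 0.14 (95% interval -0.04 to 0.32), and Sesn2, an inhibitor of mTORC1 signalling, had one of 0.08 (95% interval -0.11 to 0.26). Trib3, Asns and Chac1 each hold the composite element in the promoters printed above, and their log2 fold changes ranged from -1.58 to -0.11.

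Upstream of ATF4, none of the 5 genes for eIF2alpha kinases and phosphatase subunits passed the test by edgeR or DESeq2, and 1 of them (Eif2ak1) had an unadjusted p under 0.05. Eif2ak3, the ER-resident kinase PERK, was at 27.0, 28.7 and 29.7 CPM in control and at 24.2, 29.7 and 31.9 CPM in *Neuid* KD (lowest, median and highest). The *Neuid* KD libraries lay on both sides of the control range, and the log2 fold change was 0.03 (95% interval -0.09 to 0.16). Eif2ak4, the amino acid sensor GCN2, was at 30.9, 34.5 and 36.0 CPM in control and at 27.6, 31.4 and 35.9 CPM in *Neuid* KD, with a log2 fold change of -0.09 (95% interval -0.22 to 0.04). Eif2ak1, the haem-regulated kinase HRI, was at 50.3, 58.5 and 63.6 CPM in control and at 59.3, 65.0 and 70.4 CPM in *Neuid* KD. All 6 *Neuid* KD values of Eif2ak1 were higher than the control median although the groups overlapped, and its log2 fold change was 0.15 (95% interval 0.03 to 0.28, adjusted p = 0.129, edgeR). Its adjusted p was 0.0406 with the background as a covariate and 0.0456 with a factor of unwanted variation (edgeR in both). Ppp1r15a and Ppp1r15b, the inducible and the constitutive subunits that guide phosphatase to eIF2alpha, had log2 fold changes of -0.09 and 0.06, and the 95% intervals together reached from -0.22 to 0.18.

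Among the ER sensors and their factor, Xbp1 fell and Ern1 and Atf6 did not pass the test. Xbp1 lies at chr11:5520659-5525893 on the plus strand and was at 48.0, 49.97 and 51.7 CPM in control (lowest, median and highest). In *Neuid* KD it was at 42.7, 44.4 and 48.3 CPM, where the highest library lay within the control range and the others below it. The mean went from 50.1 ± 1.36 to 44.9 ± 1.92 CPM (SD, n = 6 per group). On the log2 scale this was a change of -0.16 with a standard error of 0.0428 (adjusted p = 0.0234, edgeR). The adjusted p was between 0.0519 and 0.0639 by edgeR when control library 4 or 5 or *Neuid* KD library 2 or 5 was left out. Within the high-background libraries the log2 fold change was -0.14 (adjusted p = 0.468, edgeR) and within the low-background libraries -0.21 (adjusted p = 0.0323, edgeR). The count per gene adds the spliced and the unspliced form of Xbp1, so splicing by IRE1 was not measured. Ern1 was at 14.0, 14.7 and 18.0 CPM in control and at 9.18, 14.1 and 16.0 CPM in *Neuid* KD, with a log2 fold change of -0.15 (95% interval -0.37 to 0.07). Atf6 was at 40.9, 46.2 and 50.6 CPM in control and at 44.0, 49.96 and 53.1 CPM in *Neuid* KD, with a log2 fold change of 0.10 (95% interval -0.03 to 0.24).

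All 4 members called higher were ER chaperones or folding enzymes, while with the background as a covariate or a factor of unwanted variation Eif2ak1 was called higher as well. Of 14 genes, 4 rose, to 115% to 122% of the control mean, and none was called lower by edgeR, at an unadjusted p under 0.05 or by DESeq2, although Hyou1 was called lower with upper-quartile normalization and within the low-background libraries (edgeR in both). Over all tested genes 6.31% were called higher and 2.42% lower. The median log2 fold change was 0.12, with 11 positive and 3 negative values, and with upper-quartile normalization it was 0.06, with 10 positive and 4 negative values. It was 0.04 within the low-background libraries (9 positive, 5 negative) and 0.12 within the high-background libraries (11 positive, 3 negative). In bulk RNA, a change in the number of cells of a type and a change in the RNA per cell cannot be told apart. The astrocyte markers moved with these genes, at summed levels of 4326 to 4835 CPM in *Neuid* KD and of 1837 to 2341 CPM in control, as did the 6 markers of oligodendrocyte precursors, at 247 to 292 CPM and 96.3 to 115 CPM, of which 2 rose. The 5 markers of myelinating oligodendrocytes summed to 8.99 to 15.5 CPM in *Neuid* KD and to 12.4 to 19.3 CPM in control. Of the 3 of them that were tested, 1 was called lower and none higher. The part of any of these cell types in the rise of the chaperones was not tested.

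Dnajc3 (p58IPK), an ER co-chaperone, lies at chr14:118937976-118981697 on the plus strand and was at 34.4, 38.6 and 40.3 CPM in control and at 40.7, 45.7 and 52.7 CPM in *Neuid* KD (lowest, median and highest). The groups did not overlap, and the log2 fold change was 0.28, with a standard error of 0.0606 (adjusted p = 0.00497, edgeR). Within the high-background libraries it was 0.22 (adjusted p = 0.140, edgeR) and within the low-background libraries 0.32 (adjusted p = 0.00108, edgeR). Calr, the calcium-binding lectin chaperone calreticulin, lies at chr8:84841850-84846934 on the minus strand and was at 487, 542 and 569 CPM in control and at 594, 613 and 692 CPM in *Neuid* KD. All *Neuid* KD libraries were above all control libraries, with 692 CPM standing apart from the others, and the log2 fold change was 0.21, with a standard error of 0.0512 (adjusted p = 0.0122, edgeR). It was 0.28 within the high-background libraries and 0.10 within the low-background libraries (adjusted p = 0.0466 and 0.0287, edgeR). Without control library 2 the adjusted p of Calr was 0.0519 by edgeR.

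Pdia4, a protein disulphide isomerase, lies at chr6:47796141-47813430 on the minus strand and was at 68.5, 74.9 and 82.3 CPM in control and at 81.5, 88.5 and 102 CPM in *Neuid* KD. The lowest *Neuid* KD library lay just under the highest control library, and the log2 fold change was 0.28, with a standard error of 0.0639 (adjusted p = 0.00918, edgeR). It was 0.36 within the high-background libraries (adjusted p = 0.00636, edgeR) and 0.15 within the low-background libraries (adjusted p = 0.0809, edgeR). An exon of Pdia4 overlaps Mir704 on the same strand. Dnajb11, a co-chaperone of the HSP70 protein BiP, lies at chr16:22857845-22879634 on the plus strand and was at 46.9, 50.1 and 54.7 CPM in control and at 54.3, 58.7 and 62.4 CPM in *Neuid* KD. The groups met at their edges, and the log2 fold change was 0.21, with a standard error of 0.0521 (adjusted p = 0.0171, edgeR). Without control library 2 the adjusted p was 0.0889 and without *Neuid* KD library 4 it was 0.0509 (edgeR). Within the high-background libraries the log2 fold change was 0.20 and within the low-background libraries 0.16 (adjusted p = 0.149 and 0.0995, edgeR), neither of which passed the test.

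Hspa5 encodes BiP, the main ER chaperone and the classical marker of the unfolded protein response, and it did not follow the genes that rose. It was at 289, 319 and 344 CPM in control and at 284, 318 and 351 CPM in *Neuid* KD, so the ranges almost coincided. The log2 fold change was 0.02 (95% interval -0.11 to 0.14, adjusted p = 0.931, edgeR). Its promoter holds the same ER stress element as those of Calr and Dnajc3, as printed above. Of the other chaperones, Canx (calnexin, the membrane-bound relative of calreticulin) and Hsp90b1 (GRP94) had log2 fold changes of 0.14 and 0.12, with an adjusted p of 0.129 and 0.152 by edgeR. Canx passed the test with the background as a covariate and with a factor of unwanted variation (adjusted p = 0.0287 and 0.0295, edgeR). The disulphide isomerases Pdia3 and Pdia6 had log2 fold changes of 0.07 and -0.04, and the ER HSP70 relative Hyou1 had one of -0.07. Dnajb9 (ERdj4), Creld2 and Manf, all induced by ER stress, had log2 fold changes of 0.12, 0.12 and 0.09. Sdf2l1, another ER stress target, had the lowest value of the group, -0.18, with a 95% interval from -0.50 to 0.14 at 50 to 149 reads per library.

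None of the 3 genes of ER-associated degradation passed the test by edgeR or DESeq2, or had an unadjusted p under 0.05. Herpud1, a membrane component of the degradation complex, Sel1l, the adaptor of its ubiquitin ligase, and Edem1, which recognises misfolded glycoproteins, had log2 fold changes of -0.08, 0.04 and -0.09. Their 95% intervals together reached from -0.24 to 0.17. Herpud1 holds both ERSE-II and the composite element in its promoter and was at 24.7 to 32.2 CPM in control and at 24.4 to 30.8 CPM in *Neuid* KD.

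In the heat shock arm, none of the 6 genes passed the test by edgeR or DESeq2, or had an unadjusted p under 0.05. The inducible HSP70 gene Hspa1a was at 2.32, 2.80 and 4.19 CPM in control and at 1.85, 2.61 and 3.50 CPM in *Neuid* KD (lowest, median and highest), with a log2 fold change of -0.21 (95% interval -0.63 to 0.21). Its neighbour Hspa1b was at 2.78, 3.49 and 3.89 CPM in control and at 3.44, 3.91 and 4.50 CPM in *Neuid* KD, with a log2 fold change of 0.22 (95% interval -0.07 to 0.50). The signs of the pair were opposite and both intervals included 0. These values are uncertain, since 66.3% of the 50-base windows of Hspa1a and 62.3% of those of Hspa1b also occur in other genes, mostly in the other gene of the pair, and their promoters differ at 4 of 300 bases. Hsf1, the master factor of the response, was at 11.2, 12.8 and 16.3 CPM in control and at 12.0, 14.0 and 15.6 CPM in *Neuid* KD, with a log2 fold change of 0.05 (95% interval -0.16 to 0.26). The constitutive chaperone Hspa8, its co-chaperone Dnajb1 and the exchange factor Hsph1 had log2 fold changes of 0.11, -0.07 and 0.09. For Hspa8, 39.4% of the windows occur in other genes, most often in Gm15459, so its level is uncertain too.

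Per length of exon, Calr was the most abundant member in control libraries, at 187 CPM per kb, ahead of Canx at 137, Hsp90b1 at 122, Pdia3 at 79.3 and Hspa5 at 74.6 CPM per kb. The lowest were Trib3 at 0.878, Hspa1a at 1.01 and Hspa1b at 1.20 CPM per kb. Of these, the levels of Hspa1a and Hspa1b are uncertain because of the windows they share. The place of Hspa8 in this order, at 4.88 CPM per kb in control, is uncertain for the same reason. Libraries of a group were closely alike for most members. The median coefficient of variation was 7.38% in control and 7.54% in *Neuid* KD, beside 13.3% and 13.9% over all tested genes. The members were also more abundant than most tested genes, with a median of 35.9 CPM in control beside 7.32 CPM. Exons of 14 members overlap those of another annotated gene, with a partner on the opposite strand for 12 and on the same strand for 5, so their counts are uncertain where reads fall in the shared stretch. Of the 7 genes that passed the test, Pdia4 was the only one with such an overlap.

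**Figure D3:**
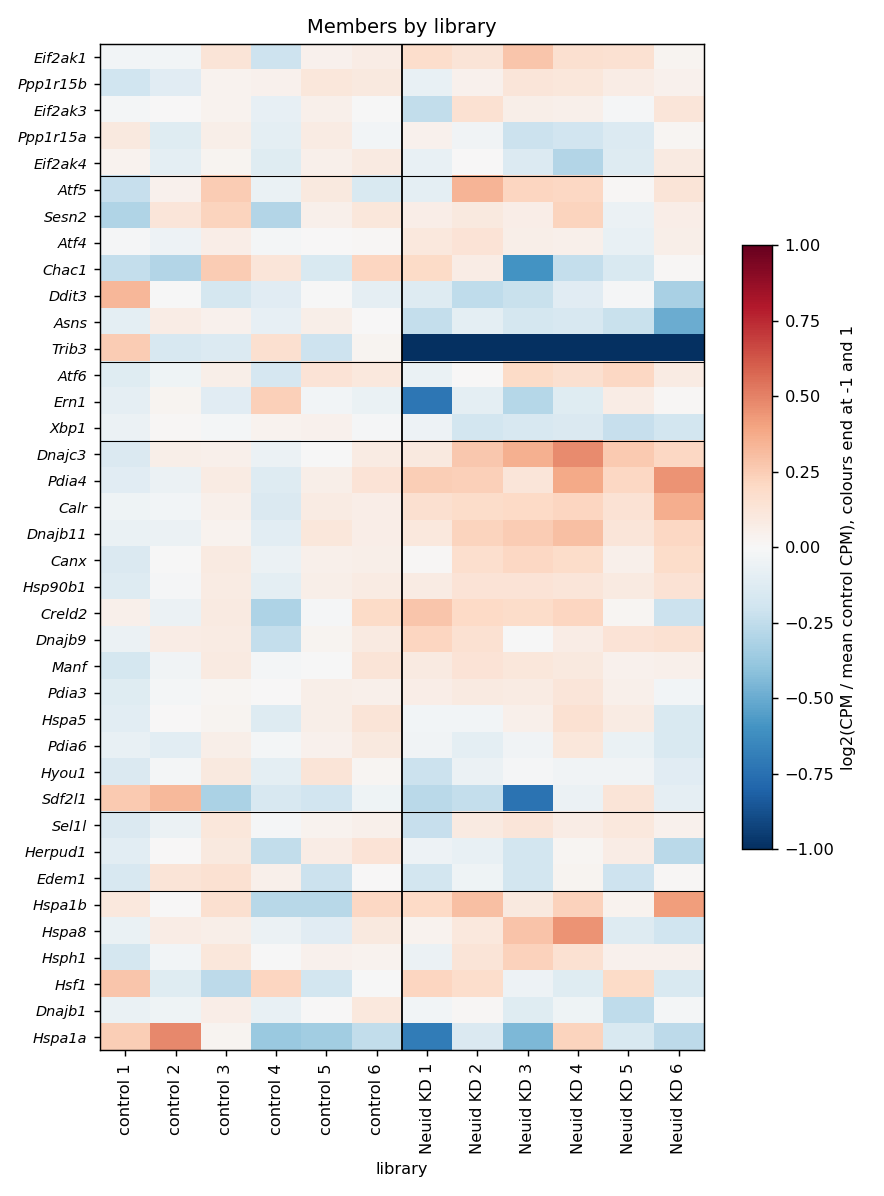
Log2 of the CPM of each member in each library over its mean in control, with red above and blue below that mean, and the colours ending at -1 and 1. Libraries are in columns, and members are grouped by role from top to bottom. Trib3 is deep blue in all 6 *Neuid* KD libraries, and the block of ER chaperones is pale red in most of them.

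**Figure D4:**
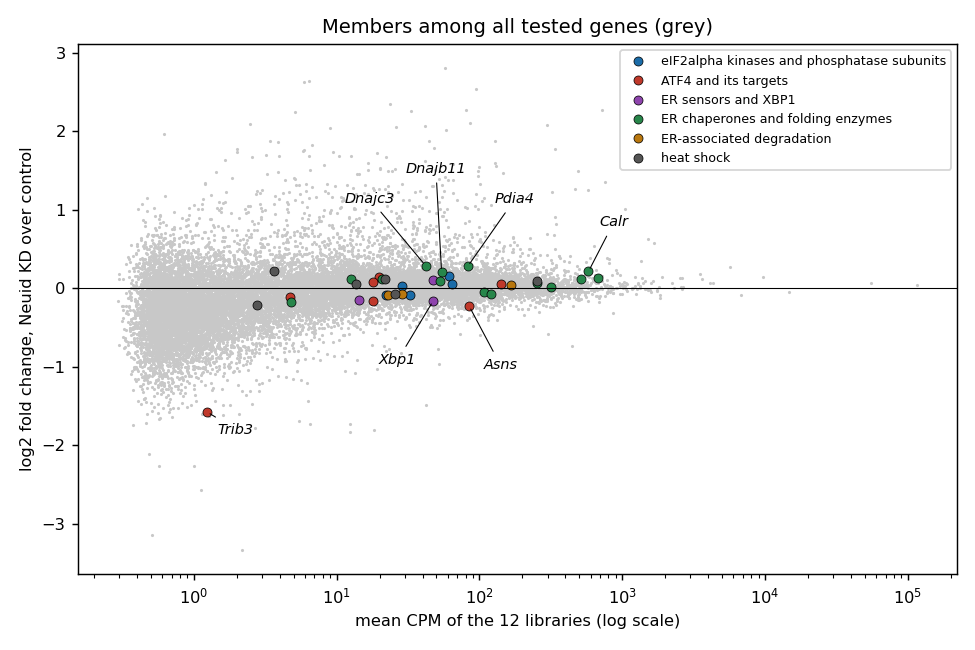
Mean CPM over the 12 libraries (log scale) against the log2 fold change, *Neuid* KD over control, for the members, coloured by role, and for all 19578 tested genes in grey. Most members lie near 0 at levels above the bulk of the tested genes, while Trib3, at -1.58, lies at the low end of abundance.

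The wider pathways were read from further lists of genes that are not members. Of 12 genes for integrated stress response kinases and the factors eIF2 and eIF2B, 1 was called higher by edgeR and by DESeq2. The share by edgeR was 8.33%, beside 6.31% of all tested genes. At an unadjusted p under 0.05, 2 had a higher level. None was lower by any of these. The gene called higher was Eif2ak2, the kinase PKR that binds double-stranded RNA, which went from 6.33 ± 0.950 to 9.50 ± 0.681 CPM (SD, n = 6 per group) without overlap between the groups. Its log2 fold change was 0.59 (standard error 0.0965), the largest increase of an eIF2alpha kinase. It was 0.63 within the high-background and 0.59 within the low-background libraries.

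Further targets of ATF4 and CHOP changed in both directions, with 5 of 46 tested genes called higher and 5 lower. These are 10.9% each, beside 6.31% of all tested genes called higher and 2.42% lower. The median log2 fold change was -0.03, the same as over all tested genes, beside 0.003 over those with a mean of at least 1 CPM. With upper-quartile normalization 5 were called higher and 10 lower, and within the high-background libraries 5 higher and 1 lower. Cth, which makes cysteine from cystathionine, rose by 1.25 on the log2 scale, from 1.79 ± 0.629 to 4.25 ± 0.974 CPM (SD, n = 6 per group), with a log2 fold change of 1.14 within the high-background and 1.85 within the low-background libraries. Slc7a3, a transporter of cationic amino acids, and Slc7a11, the cystine importer, fell by 0.60 and 0.57 on the log2 scale. The other genes called higher were Gpt2, Psat1, Slc7a5 and Slc1a4, which serve amino acid synthesis and transport, and the other genes called lower were Stc2, Pck2 and Bbc3. The log2 fold change of Slc7a3 was -0.59 with high and -0.55 with low background, but did not pass the test in either set of libraries (adjusted p = 0.228 and 0.146, edgeR), nor without control library 4 or *Neuid* KD library 2 or 4 (adjusted p between 0.0511 and 0.0555, edgeR). Slc7a11 did not pass it within the low-background libraries (log2 fold change -0.41, adjusted p = 0.0728, edgeR).

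Of 62 further tested targets of IRE1, XBP1 and ATF6 and genes of ER-associated degradation, 6 were called higher and 1, Wfs1, lower. The shares were 9.68% higher, beside 6.31% of all tested genes, and 1.61% lower, beside 2.42%. The median log2 fold change was 0.06. With upper-quartile normalization 6 were called higher and 5 lower with a median of 0.01, with no filter 1 higher and 0 lower, and with a factor of unwanted variation 10 higher and 2 lower. Within the low-background libraries the median was -0.01, with 26 positive and 36 negative values. Among the genes that were called, all above 1 CPM on average, the largest changes were those of the thioredoxin-like folding enzyme Txndc5 (log2 fold change 0.32), the ER membrane protein Tmbim6 (0.31) and the translocon-associated protein Ssr3 (0.29). These values are of the same size as those of the 4 member chaperones that rose. Of 41 further heat shock and cytosolic chaperone genes, 2 were called higher (4.88%, beside 6.31% of all tested genes) and 1 lower (2.44%, beside 2.42%), with a median of 0.04. Bag3, an HSP70 co-chaperone and a target of HSF1, fell by 0.72 on the log2 scale, from 7.21 ± 1.16 to 4.45 ± 1.24 CPM (SD, n = 6 per group). Serpinh1, the ER chaperone of collagen, rose with a log2 fold change of 0.49 and Hspa9, the mitochondrial HSP70, with one of 0.23, which was 0.13 within the low-background libraries.

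The lists for other kinds of stress held calls as well. Of 20 targets of p53, 4 were called higher (20%, beside 6.31% of all tested genes) and 1 lower (5%, beside 2.42%). Their median log2 fold change was 0.03. The receptor gene Eda2r and the p53 cofactor Trp53inp1 rose with log2 fold changes of 0.69 and 0.37, while the cell cycle inhibitor Cdkn1a fell by 0.48. Eda2r did not pass the test within the high-background libraries (log2 fold change 0.52, adjusted p = 0.0911, edgeR). Of 21 targets of NRF2, the factor of the oxidative stress response, 4 were called higher (19.0%, beside 6.31%) and none lower by edgeR (beside 2.42%). At an unadjusted p under 0.05 and by DESeq2, 1 was lower, and the median was 0.04. Thioredoxin (Txn1), malic enzyme (Me1) and glucose-6-phosphate dehydrogenase (G6pdx) rose with log2 fold changes of 0.44, 0.34 and 0.23. The largest change of the list was a decrease, with a log2 fold change of -0.62, which edgeR did not call. In all, 15 of the 21 had a positive and 6 a negative value. G6pdx did not pass the test within the high-background or the low-background libraries or without control library 2 (log2 fold change 0.20, 0.23 and 0.19, adjusted p = 0.232, 0.123 and 0.0653, edgeR).

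**Figure D5:**
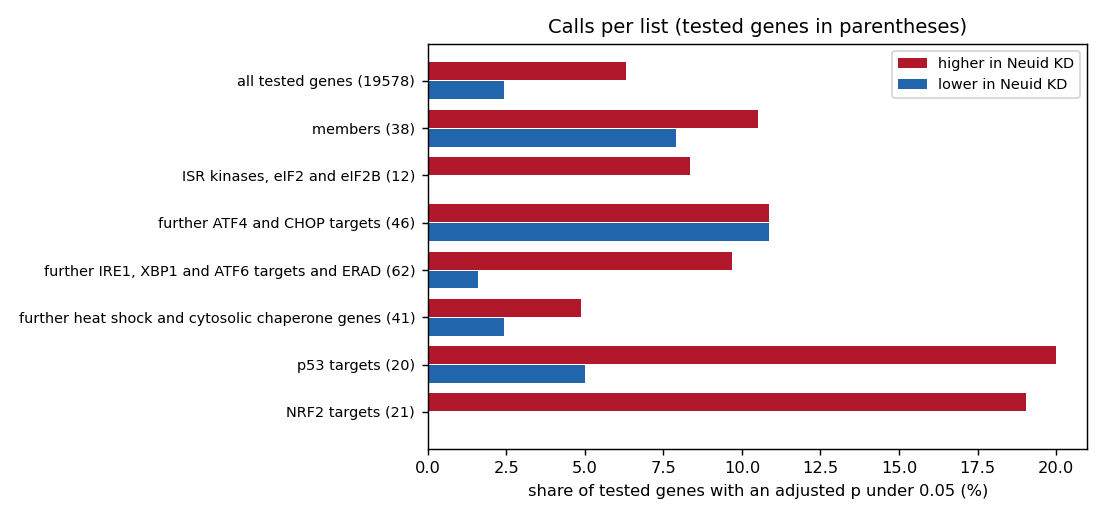
Share of tested genes with an adjusted p under 0.05 in each list, in percent, higher (red) or lower (blue) in *Neuid* KD, with the number of tested genes in parentheses. Among all tested genes 6.31% were higher and 2.42% lower, and among the 38 members 10.5% and 7.89%.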

How the data were processed

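Libraries were made from total RNA with a stranded kit. Reads were aligned by the authors with STAR to mm10 (GRCm38), and the deposited values are whole-number counts per gene from featureCounts, not normalized. The strand setting is not given in the sources used here. Symbols, exons and positions came from GENCODE on GRCm38, and promoters from RefSeq. TMM scaling, the filterByExpr filter and the quasi-likelihood test, all of edgeR 4.0.16 (R 4.3.3), were used to compare the 6 control with the 6 *Neuid* KD libraries, with Benjamini-Hochberg adjustment over the 19578 genes kept. CPM values use the same scaling. A gene was called at an adjusted p under 0.05, and also counted with an absolute log2 fold change above 0.5. The 95% intervals use the standard error and residual degrees of freedom of that fit. Alternatives were upper-quartile and RLE scaling, DESeq2 1.42.0, no filter, a background covariate, 1 RUVs factor, high- or low-background libraries only, a replicate block and each library left out. The study's own analysis used DESeq2 with RUVseq. The procedure was tested on simulated data.

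Every member was described, with full values for those called and for the sensors, factors and sentinel targets. Of each further list, the 3 genes with the largest change among those called, with a mean of at least 1 CPM, were given values, and other called genes were named after their values were seen. The members, lists, motifs and background measure were chosen with earlier results of these data known.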

Additional observations from a re-analysis of the deposited data

Results flagged for a closer look

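Among 78 groups of 6 libraries examined (the members and *Neuid*), 3 held a library that stood apart from the other 5 by Dixon's test at the 95% level, and chance alone would give about 1 group in 20. Ddit3 was at 24.1 CPM in control library 1 and between 16.9 and 19.0 CPM in the other control libraries. Calr was at 692 CPM in *Neuid* KD library 6 and between 594 and 624 CPM in the other *Neuid* KD libraries. Sel1l was at 139 CPM in *Neuid* KD library 1 and between 168 and 178 CPM in the other *Neuid* KD libraries.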

How the results depend on the processing

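Trib3 was called lower under all 9 alternatives and without each of the 12 libraries, and the 7 called members kept their sign throughout. Members called higher numbered 4, but 0 with no filter on low counts, 2 within the high-background and 2 within the low-background libraries, 6 with the background covariate, 6 with RUVs, and 2 to 4 without 1 library. Members called lower numbered 3, but 4 with upper-quartile normalization, 1 with no filter, and 1 to 3 without 1 library. They numbered 2 within the high-background and 4 within the low-background libraries. Without the filter 48419 genes were fitted, and the cause of the lost calls was not tested. Hspa9, Tmbim6, Ssr3, Slc7a3 and G6pdx also lost their calls there. Over all genes, 711 were called higher with no filter and 787 within the high-background libraries, against 1235, and 878 to 1215 without 1 library. Called lower were 1259 (upper-quartile), 1000 (DESeq2), 229 (no filter), 987 (background covariate), 987 (RUVs), 240 (high background) and 809 (low background), against 473, and 390 to 786 without 1 library. Past the fold of 0.5 these were 260 (DESeq2), 300 (background covariate), 282 (RUVs) and 99 (high background), against 155, and 121 to 269 without 1 library. The highest counts lower came without *Neuid* KD library 1, the shallowest library, at 11152556 counted reads.

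The scalings moved the median of all genes by -0.060 (upper-quartile), -0.017 (RLE) and -0.018 (DESeq2), a shift shared by all genes. Changes of sign arose for 14 uncalled members in all. With upper-quartile normalization the log2 fold changes were -0.0020 (Atf4), -0.0019 (Ppp1r15b), -0.029 (Eif2ak3), -0.042 (Hspa5), -0.020 (Sel1l) and -0.012 (Hsf1). Hspa5 was at -0.0011 with RLE factors and -0.0010 with DESeq2. Within the high-background libraries they were 0.061 (Chac1), 0.023 (Ppp1r15a), 7.5e-05 (Eif2ak4) and -0.10 (Hspa8), and within the low-background libraries -0.0069 (Atf6), -0.038 (Sesn2), -0.0081 (Ppp1r15b), -0.011 (Hspa5), -0.0083 (Dnajb9), -0.0077 (Sel1l) and 0.017 (Hspa1a). Without 1 library they ranged over -0.00070 to 0.081 (Ppp1r15b), -0.0030 to 0.043 (Eif2ak3), -0.017 to 0.048 (Hspa5), -0.0087 to 0.064 (Sel1l), -0.017 to 0.11 (Hsf1).

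The labels do not say whether same-numbered libraries were paired, and the main test used no pairing. Same-numbered libraries correlated between -0.637 and 0.774, and 2 of 6 correlated best with their own number, which does not settle it. With the replicate block, 5 members were higher and 2 lower, Xbp1 had an adjusted p of 0.0565 and Canx one of 0.0482 (edgeR), and 1299 genes were higher and 542 lower.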
